A study of Mus musculus with 50 samples.

Results

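Hippocampal microglia of 7 adult control mice, taken 3 hours after an injection of lipopolysaccharide (the CTR-LPS group), were set against those of 12 uninjected neonatal control mice (the P9-CTR group). The mice were chosen by the age, rearing condition and treatment in their labels alone, and they make up 19 of the 50 mice of the series. All mice were male C57BL/6J, and CTR stands for rearing with standard bedding and nesting material. The CTR-LPS mice were 200 days old (P200) and received lipopolysaccharide (LPS), a component of the bacterial cell wall, at 1 mg/kg into the abdomen, whereas the P9-CTR mice were 9 days old. As the adult baseline served 7 P200 CTR mice injected with phosphate-buffered saline (CTR-PBS). The remaining 24 mice had been reared under early-life stress (ELS) with limited bedding and nesting material, namely 13 P9-ELS, 6 ELS-PBS and 5 ELS-LPS mice. They were used to choose gene lists and directions, so that no mouse entered both the choice of a list and its count in CTR mice. Each library held the RNA of 1 mouse, from living, nucleated CD11b+ cells with intermediate CD45 sorted by flow cytometry. Adult tissue was cleared of myelin on Percoll before the sort and P9 tissue was not. The P9 and P200 mice also came from separate cohorts of the study. Age, LPS, the injection, the Percoll step and the cohort therefore all differ between CTR-LPS and P9-CTR, and their parts in that contrast cannot be told apart. LPS by itself is the contrast of CTR-LPS with CTR-PBS. P9-CTR against CTR-PBS and P9-ELS against ELS-PBS mice are called differences of age below. These contrasts hold the injection, the Percoll step and the cohort as well, which cannot be told apart from age.

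Microglia are the resident macrophages of the brain. In the first days after birth they divide, have a rounded, amoeboid shape, clear dying cells and support growing axons and myelin, and in the adult they settle into a ramified, surveying state with high levels of genes such as P2ry12 and Tmem119. LPS is sensed through the receptor Tlr4, which switches on the transcription factor NF-kB and, within hours, genes for cytokines, chemokines and their inhibitors. Both the neonatal and the LPS-exposed state are called active, and the question was which genes they share and which separate them.

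The libraries of CTR-LPS mice held 13900212 to 42231258 counted reads and those of P9-CTR mice 13605733 to 31020979, and 16696 of 53700 genes reached the level needed for testing, 1 CPM (read count scaled to a common library size) in at least 3 mice. Genes of microglia were high in all 3 CTR groups. Csf1r, the receptor that keeps microglia alive, stood at medians of 8758, 7949 and 7403 CPM in P9-CTR, CTR-PBS and CTR-LPS mice. The microglial markers P2ry12, Cx3cr1 and Tmem119 had medians of 8445, 7118 and 2226 CPM in P9-CTR mice. In CTR-PBS mice they had 14793, 9733 and 8419 CPM, and in CTR-LPS mice 8862, 7088 and 6571 CPM. All 3 were thus lower in P9-CTR than in CTR-PBS mice. Transcripts of other cells were not equal between the ages. The summed level of 15 neuronal markers was 133 to 337 CPM in P9-CTR mice, 2.52 to 16.1 CPM in CTR-PBS mice and 8.37 to 20.6 CPM in CTR-LPS mice. The summed level of 10 markers of border-associated macrophages, the macrophages of the brain's surfaces and vessels, was 730 to 1139 CPM in P9-CTR, 155 to 208 CPM in CTR-PBS and 95.3 to 222 CPM in CTR-LPS mice. Most of this sum was 1 gene at each age. Mrc1, also listed for neonatal microglia, had a mean of 711 beside 930 CPM in P9-CTR mice. Stab1 had 170 beside 179 CPM in CTR-PBS mice. The 16 markers of monocytes and neutrophils summed to 2.04 to 8.62 CPM in CTR-LPS mice, 0.858 to 8.94 CPM in CTR-PBS mice and 11.4 to 22.4 CPM in P9-CTR mice, so these blood cells' genes stayed near 0 after LPS. One CTR-PBS library, mouse 1.1, stood apart with 12854 detected genes, while the other CTR-PBS mice had at least 17424, and 2 P9-ELS libraries had 12482 and 15731. Results that turn on them are given with and without them. Genes were named by rank within each contrast and list, and the others named below, mostly as exceptions, were chosen after their values were seen.

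LPS-exposed adult and neonatal microglia differed widely. The 10 largest increases in CTR-LPS mice included Il12b, Ptgs2, Il1b and Cxcl10, genes of inflammation, and the 10 largest decreases included genes of cell division (Kif23, Rrm2), of neonatal microglia (Igf1) and, with Fabp7 and Ncan, genes known from other brain cells. A gene was called where its log2 fold change exceeded 1 in size and its p, by edgeR's quasi-likelihood test with Benjamini-Hochberg adjustment over all tested genes, fell below 0.05. By this rule 1820 genes (10.9% of those tested) were higher in CTR-LPS than in P9-CTR mice and 2989 (17.9%) were lower, and the lower calls had the larger fold changes, with medians of 1.86 and -3.05 on the log2 scale. In 3298 genes (19.8%) the 7 CTR-LPS mice and the 12 P9-CTR mice did not overlap at all. For comparison, 1005 genes (6.02%) were higher and 601 (3.6%) lower in CTR-LPS than in CTR-PBS mice, and 3083 (18.5%) were higher and 1333 (7.98%) lower in P9-CTR than in CTR-PBS mice. These last 2 contrasts share the CTR-PBS mice.

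These calls were then split by how the same genes behaved in ELS mice. Of the 2989 genes lower in CTR-LPS than in P9-CTR mice, 2044 (68.4%) were also higher in P9-ELS than in ELS-PBS mice without a lowering by LPS in ELS mice, a pattern found in 17.35% of all tested genes. Another 185 (6.19%) were lowered by LPS in ELS mice without a difference of age, against 3.04% of all tested genes, and 737 (24.7%) had neither call. Of the 1820 genes higher in CTR-LPS, 430 (23.6%) were only raised by LPS in ELS mice, 627 (34.5%) were only low at P9, 84 (4.62%) were both and 679 (37.3%) neither, whereas the first 3 patterns held for 4.19%, 8.18% and 0.503% of all tested genes.

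Acute LPS moved adult microglia a small step along the line from adult to neonatal and a large step off it. The age axis was the difference between the mean log2 CPM profiles of P9-ELS and ELS-PBS mice, scaled so that the mean CTR-PBS mouse lies at 0 and the mean P9-CTR mouse at 1. CTR-LPS mice lay at 0.0249 to 0.111 (median 0.0728) and CTR-PBS mice at -0.0285 to 0.0345 (median -0.00705). The mean difference was 0.0704 of the way to P9-CTR (exact two-sided permutation test, p = 0.00117, 7 against 7 mice), and 1 CTR-LPS mouse lay within the range of the CTR-PBS mice. In the reverse test, the LPS axis ran from the mean CTR-PBS mouse at 0 to the mean CTR-LPS mouse at 1 along the difference between ELS-LPS and ELS-PBS mice. P9-CTR mice lay at 0.195 to 0.331 (median 0.25), above all CTR-PBS mice, which lay at -0.0571 to 0.143, and below all CTR-LPS mice, which lay at 0.85 to 1.13. The mean difference between P9-CTR and CTR-PBS mice was 0.253 (exact two-sided permutation test, p = 1.98e-05, the smallest that 12 against 7 mice can give).

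**Figure D1:**
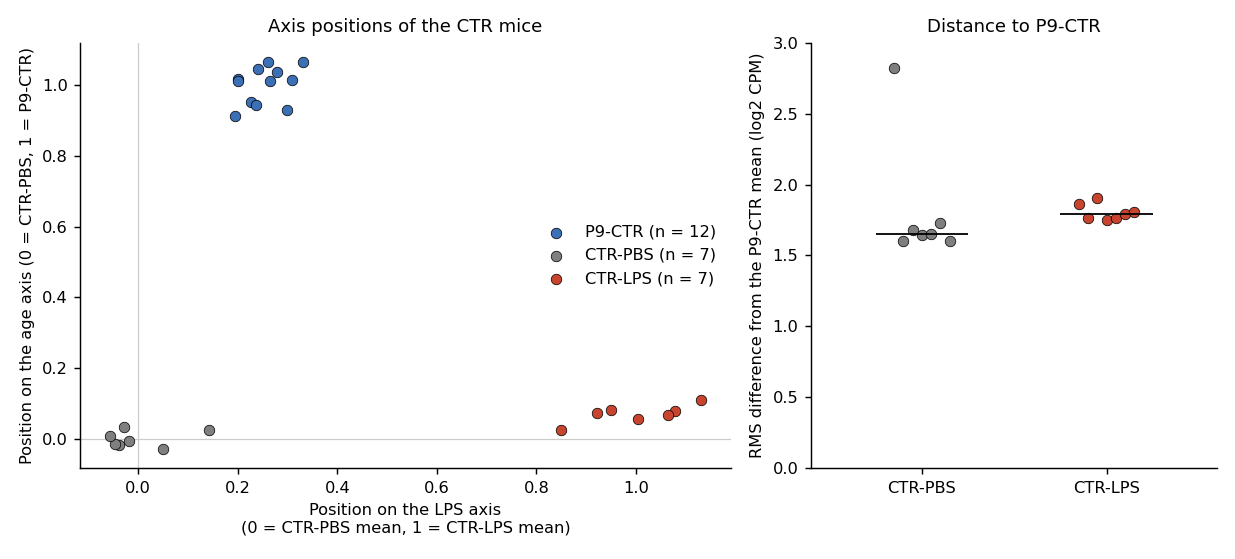
Left, position of each CTR mouse on the LPS axis (horizontal, 0 is the mean CTR-PBS and 1 the mean CTR-LPS mouse) and on the age axis (vertical, 0 is the mean CTR-PBS and 1 the mean P9-CTR mouse), both without units and both with directions taken from ELS mice. Right, root mean square (RMS) difference in log2 CPM of each adult mouse from the P9-CTR mean, with the group median as a line. The CTR-LPS mice sit at 0.0249 to 0.111 on the age axis, and CTR-PBS mouse 1.1 sits at 2.82 on the right, above all other adults.

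The whole-profile distance to P9-CTR depended on 1 library. The root mean square difference in log2 CPM from the P9-CTR mean over all tested genes was 1.75 to 1.90 (median 1.79) in CTR-LPS mice and 1.599 to 2.819 (median 1.65) in CTR-PBS mice. With all 7 CTR-PBS mice the group means differed by -0.0112 (exact two-sided permutation test, p = 1). Without CTR-PBS mouse 1.1, every CTR-LPS mouse was farther from P9-CTR than every CTR-PBS mouse, by 0.156 on average (exact two-sided permutation test, p = 0.000583). The shift along the age axis remained without that mouse, at 0.0741 (exact two-sided permutation test, p = 0.00175). The LPS shift itself, CTR-LPS minus CTR-PBS, had a root mean square of 0.992 and the age shift, P9-CTR minus CTR-PBS, one of 1.56 on the log2 scale.

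Gene by gene, the shift with LPS in CTR mice and the shift with age in ELS mice, which share no mouse, had a Pearson correlation of 0.0835 across the 16696 tested genes. The age shift in CTR mice and the LPS shift in ELS mice gave 0.131. These values describe genes, which are not independent replicates. The same kind of shift in the 2 rearing conditions gave 0.745 for LPS and 0.884 for age.

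**Figure D2:**
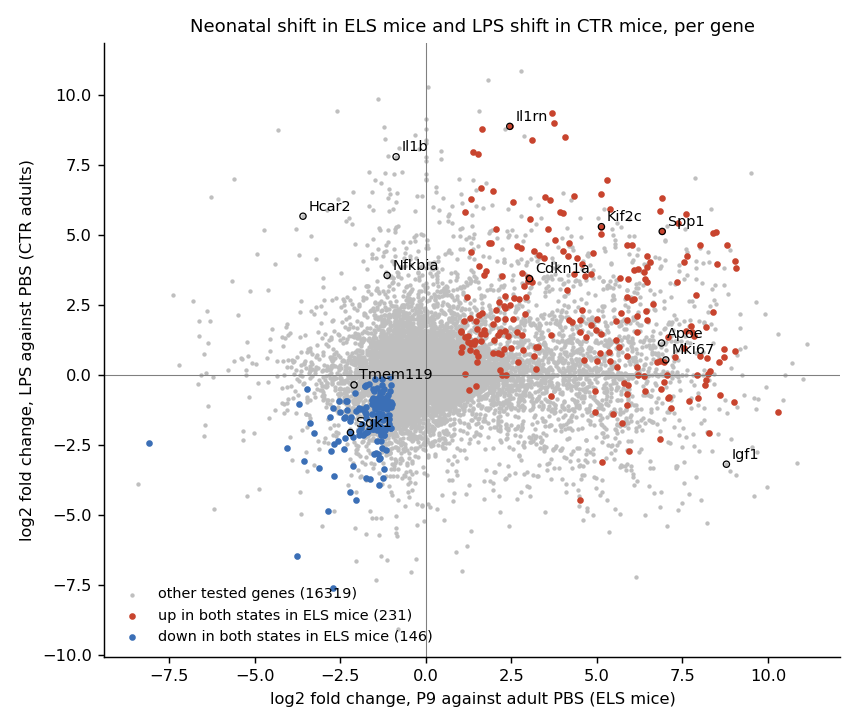
Each point is 1 tested gene, with its log2 fold change between P9-ELS and ELS-PBS mice on the horizontal axis and between CTR-LPS and CTR-PBS mice on the vertical axis, so that no mouse enters both. Red points are the 231 genes up and blue points the 146 genes down in both states in ELS mice, a choice that uses the horizontal axis. The cloud lies along both axes, with a Pearson correlation of 0.0835.

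The genes of the neonatal state were moved by LPS in both directions. Of 2919 genes higher in P9-ELS than in ELS-PBS mice, 240 (8.22%) were raised and 77 (2.64%) lowered by LPS in CTR mice, beside 6.02% and 3.6% of all tested genes, and their median log2 fold change with LPS was 0.107 (0.00468 over all tested genes). The raised share was not stable against the background. It was below that of all tested genes in 2 fits, both of which model the label number that mice share. Limma voom with that number as a random effect gave 170 of 2693 (6.31% beside 7.57%). With the number as a block, in a fit of the CTR-LPS and CTR-PBS mice alone, it was 93 of 2919 (3.19% beside 4.23%). The raised share was above that of all tested genes under the other 22 of 24 alternatives fitted at the same thresholds. Among these, counts summed over mice sharing a label number gave 157 of 2666 (5.89% beside 5.22%). The lowered share was below the background in all 24, at 39, 20 and 8 genes under the sums, limma voom and the block. Of the same 2919 genes, 2067 (70.8%) were still lower in CTR-LPS than in P9-CTR mice, beside 17.9% of all tested genes. Of 1449 genes lower in P9-ELS than in ELS-PBS mice, LPS lowered 140 (9.66%), toward the neonatal level, beside 3.6% of all tested genes. It raised 124 (8.56%), away from that level, beside 6.02%. For these neonatal-low genes both shares were above the background in all 24 alternatives. A subset of 84 genes was both low at P9 and raised by LPS in ELS mice. All 84 were called higher in CTR-LPS than in P9-CTR mice, beside 10.9% of all tested genes, and the median of their log2 fold changes was 3.85.

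The genes up in both active states were taken from ELS mice, where 231 genes were higher at P9 and higher after LPS than in ELS-PBS mice. Since both of these contrasts use the ELS-PBS mice, the overlap itself is no result, and the genes were counted in CTR mice. There 176 of the 231 (76.2%) were called higher in P9-CTR than in CTR-PBS mice, beside 18.5% of all tested genes, and 121 (52.4%) were called higher in CTR-LPS than in CTR-PBS mice, beside 6.02%. In the direct contrast 42 of them were higher and 90 lower in CTR-LPS than in P9-CTR mice.

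Kif2c, a kinesin that takes microtubules apart at the centromere during mitosis, was at 31.7 to 84.7 CPM (median 66.9) in P9-CTR mice, 0 to 3 CPM (median 0.851) in CTR-PBS mice and 18.4 to 58.7 CPM (median 46.4) in CTR-LPS mice. All 7 CTR-LPS mice lay above all CTR-PBS mice (log2 fold change 5.298 ± 0.47, adjusted p = 7.32e-13), and they overlapped with P9-CTR mice (log2 fold change -0.55 ± 0.35, adjusted p = 0.193). The gene lies on chromosome 4 at 117016830 to 117039836, minus strand, of GRCm39. Of a list of 50 mitosis genes, Kif2c and Cdc25c, a phosphatase that triggers entry into mitosis, were called higher after LPS, the latter on very few reads. Cdc25c had no read in any CTR-PBS mouse and was at 0 to 0.471 CPM (median 0) in CTR-LPS mice, against 8.18 to 30 CPM (median 15.9) in P9-CTR mice.

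Spp1, which encodes the secreted protein osteopontin and marks neonatal microglia of axon tracts, was at 85.6 to 319 CPM (median 231) in P9-CTR mice, 0 to 2.35 CPM (median 0.874) in CTR-PBS mice and 4.51 to 88.9 CPM (median 32.5) in CTR-LPS mice. Every CTR-LPS mouse was above every CTR-PBS mouse, while 1 CTR-LPS mouse reached the range of the P9-CTR mice, and the group lay below P9-CTR (log2 fold change -2.48 ± 0.43, adjusted p = 4.77e-06). Spp1 lies on chromosome 5 at 104582165 to 104589235, plus strand. Cdkn1a, an inhibitor of cyclin-dependent kinases, was at 78.1 to 115 CPM (median 95.5) in P9-CTR, 14.1 to 28 CPM (median 20.5) in CTR-PBS and 126 to 298 CPM (median 196) in CTR-LPS mice. Here the LPS-exposed adults were highest, with no overlap among the 3 groups. Mt2, a metal-binding metallothionein, had the same order of medians, with 3.34 to 11.22 CPM (median 6.94) in P9-CTR, 0 to 0.641 CPM (median 0.35) in CTR-PBS and 8.77 to 45.1 CPM (median 20.17) in CTR-LPS mice, but the active groups overlapped. Il1rn, the secreted antagonist of the interleukin-1 receptor, was at 0.812 to 4.96 CPM (median 2.12) in P9-CTR, 0 to 1.13 CPM (median 0) in CTR-PBS and 7.22 to 169.6 CPM (median 90.1) in CTR-LPS mice, so that neonatal levels were small beside those after LPS. Sema4a, a semaphorin, reached a P9-like range, 12.7 to 46.3 CPM (median 30.6) in P9-CTR and 9.99 to 82.2 CPM (median 23.1) in CTR-LPS mice, against 0.203 to 8.48 CPM (median 5.67) in CTR-PBS mice.

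Ehd1, a regulator of endosome recycling, and Clic4, a chloride channel protein, were also higher in both states than in CTR-PBS mice and higher in CTR-LPS than in P9-CTR mice, by 3.04 ± 0.47 and 1.197 ± 0.39 on the log2 scale (± SE). The Clic4 call against P9-CTR was lost without CTR-LPS mouse 8.2 (0.881). It was also lost with counts summed over mice sharing a label number (0.990, edgeR adjusted p = 0.216) and under limma voom (0.960). The other 2 genes named by rank, Fads2, a fatty acid desaturase, and Gfap, an intermediate filament gene of astrocytes, did not pass the LPS test in CTR mice, with medians of 0.273 and 1.23 CPM in CTR-PBS and 1.51 and 1.8 CPM in CTR-LPS mice. Gfap belongs to the other-cell transcripts that are high at P9.

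The genes down in both active states were taken in the same way, and there were 146. In CTR mice 101 of them (69.2%) were called lower in P9-CTR than in CTR-PBS mice, beside 7.98% of all tested genes, and 90 (61.6%) were called lower in CTR-LPS than in CTR-PBS mice, beside 3.6%. Their median log2 fold change between CTR-LPS and P9-CTR mice was -0.0286. In that contrast 11 (7.53%) were called higher and 21 (14.4%) lower, below the 10.9% and 17.9% of all tested genes. Without CTR-PBS mouse 1.1 the counts of 101 and 90 became 117 and 106, and without the 3 libraries of few detected genes, with the list chosen again, the first became 152.

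Sgk1, a kinase induced by glucocorticoids, was at 752 to 1005 CPM (median 876) in CTR-PBS mice, 176 to 273 CPM (median 237) in P9-CTR mice and 120.2 to 414 CPM (median 189.5) in CTR-LPS mice. Both active groups lay below all CTR-PBS mice and overlapped with each other (log2 fold change -0.13 ± 0.16, adjusted p = 0.532). Sgk1 lies on chromosome 10 at 21758083 to 21875802, plus strand. Most of the other glucocorticoid targets tested were instead higher in CTR-LPS than in P9-CTR mice. Calhm2, a calcium-regulated channel gene, was at 33.7 to 53.8 CPM (median 49.8) in CTR-PBS, 6.52 to 25.3 CPM (median 15.3) in P9-CTR and 7.53 to 22.5 CPM (median 15.4) in CTR-LPS mice. Arrdc3, an arrestin-like adaptor, went lower after LPS than at P9, with 8.19 to 25.2 CPM (median 12.2) against 21.1 to 65.6 CPM (median 42.4), and stood at 84.5 to 131 CPM (median 104) in CTR-PBS mice. Nudt7, which splits coenzyme A in peroxisomes, Dcbld2, a membrane receptor, and Zfp69, a zinc finger protein, were each called lower in CTR-LPS than in CTR-PBS mice, by -1.55 ± 0.23, -1.03 ± 0.28 and -1.94 ± 0.20 on the log2 scale. In P9-CTR mice the same genes differed from CTR-PBS mice by -2.03 ± 0.20, -1.47 ± 0.24 and -0.89 ± 0.17, the last of which is short of the fold threshold. The same ranking named 4 predicted genes, Gm37531, C130089K02Rik, Gm33858 and Gm34589, of which C130089K02Rik passed neither test in CTR mice.

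Tlr4, the receptor for LPS, is on the list of genes down in both states and was at 260 to 469.7 CPM (median 387) in CTR-PBS, 98.5 to 205 CPM (median 155) in P9-CTR and 127 to 269 CPM (median 190.1) in CTR-LPS mice. The difference between P9-CTR and CTR-PBS mice was called, and that between CTR-LPS and CTR-PBS mice had a log2 fold change of -0.96 ± 0.23, adjusted p = 0.00198, just short of the fold threshold.

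Most genes of the homeostatic list, which mark the surveying adult state, did not pass the LPS test, as most tested genes did not. Not called were 33 of its 36 genes and 15090 of all 16696 tested genes, so the list did not stand out from the background. Of its 36 genes, 12 were lower in P9-CTR than in CTR-PBS mice, 2 were higher and 1 lower in CTR-LPS than in CTR-PBS mice, and 11 were higher and 1 lower in CTR-LPS than in P9-CTR mice. Among all tested genes 7.98% were lower in P9-CTR than in CTR-PBS mice, 6.02% were raised and 3.6% lowered by LPS, and 10.9% were higher and 17.9% lower in CTR-LPS than in P9-CTR mice. The list's summed level was 132787 to 161094 CPM in CTR-LPS, 149822 to 168298 CPM in CTR-PBS and 59701 to 93915 CPM in P9-CTR mice. Tmem119, a membrane protein particular to microglia within the brain, was at 4556 to 8909 CPM (median 6571) in CTR-LPS, 7683 to 9459 CPM (median 8419) in CTR-PBS and 1251 to 2560 CPM (median 2226) in P9-CTR mice. Its log2 fold change with LPS was -0.35 ± 0.23 and was not called, while 6 of the 7 CTR-LPS mice lay below all CTR-PBS mice. Selplg, the ligand of P-selectin, and Cst3, the protease inhibitor cystatin C, had log2 fold changes of -0.09 ± 0.15 and 0.16 ± 0.16 with LPS and of 2.52 ± 0.13 and 2.102 ± 0.14 against P9-CTR.

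The receptors P2ry12, which senses purines, and Cx3cr1, which binds fractalkine, were different. P2ry12 was at 12500 to 16171 CPM (median 14793) in CTR-PBS, 6942 to 12227 CPM (median 8862) in CTR-LPS and 7636 to 9114 CPM (median 8445) in P9-CTR mice, so that all 7 CTR-LPS mice lay below all CTR-PBS mice and overlapped with the P9-CTR mice. Its log2 fold changes were -0.62 ± 0.16, adjusted p = 0.00443 with LPS and 0.16 ± 0.14, adjusted p = 0.384 against P9-CTR, the first past the p threshold and short of the fold threshold. Cx3cr1 had medians of 9733, 7088 and 7118 CPM in the same order, with log2 fold changes of -0.45 ± 0.20, adjusted p = 0.124 with LPS and 0.02 ± 0.17, adjusted p = 0.922 against P9-CTR. Sall1, a transcription factor that holds microglial identity, was the list's exception. It was at 71.9 to 116 CPM (median 89.9) in CTR-LPS mice, below all P9-CTR mice at 203.5 to 291 CPM (median 233) and all CTR-PBS mice at 187 to 361 CPM (median 315). Gpr84, a fatty acid receptor counted on this list, was the reverse, with 1827 to 6590 CPM (median 4718) in CTR-LPS mice and 192 to 292 CPM (median 228) in P9-CTR mice.

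**Figure D3:**
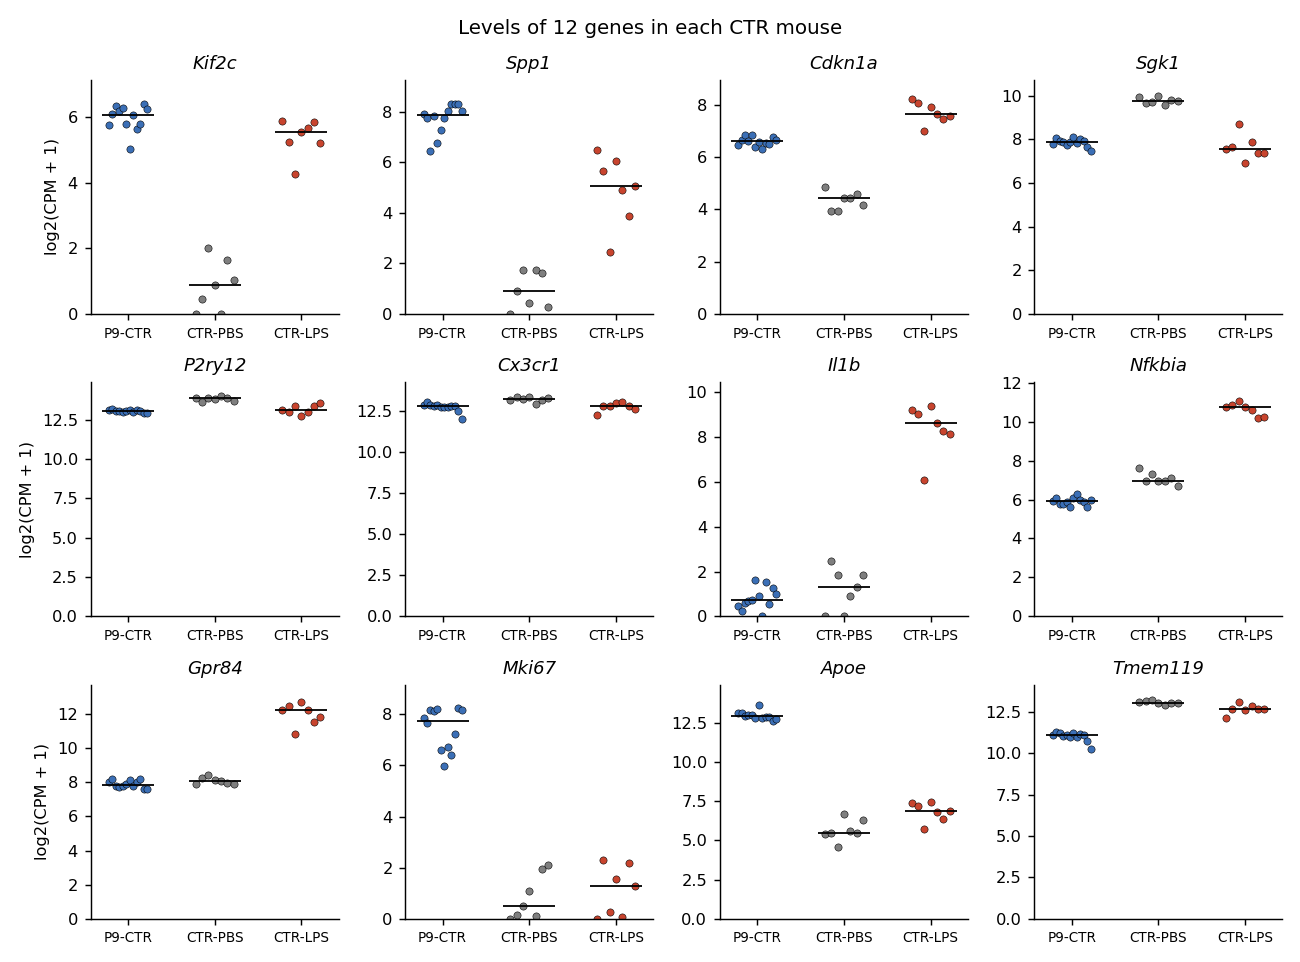
Levels of 12 genes as log2(CPM + 1), 1 point per mouse, with the group median as a line, in P9-CTR (12 mice), CTR-PBS (7) and CTR-LPS (7) mice. Kif2c, Spp1 and Cdkn1a are high and Sgk1 low in both active groups, whereas Il1b, Nfkbia and Gpr84 are high in CTR-LPS mice and Mki67 and Apoe in P9-CTR mice.

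Genes of cell division separated the 2 states. Of 49 DNA replication genes, 46 were lower in CTR-LPS than in P9-CTR mice and 0 higher, and of 50 mitosis genes 47 were lower and 1 higher, beside 17.9% and 10.9% of all tested genes. The exception was Pttg1, the securin that holds sister chromatids together, at 30.8 to 54.8 CPM (median 40.4) in CTR-LPS and 11.14 to 24.7 CPM (median 17.13) in P9-CTR mice. Against CTR-PBS mice, LPS raised 3 and lowered 2 of the replication genes and raised 2 and lowered 1 of the mitosis genes. Among all tested genes it raised 6.02% and lowered 3.6%. All of these replication and mitosis genes but Kif2c were at low levels. Mcm10 is one of those raised, with a median of 0 CPM in both adult groups. Mki67, the standard marker of cycling cells, was at 62.2 to 299.5 CPM (median 214) in P9-CTR, 0 to 3.28 CPM (median 0.428) in CTR-PBS and 0 to 3.98 CPM (median 1.46) in CTR-LPS mice. Top2a, a topoisomerase of dividing cells, was at 172 to 337 CPM (median 277) in P9-CTR and 0.563 to 8.44 CPM (median 2.53) in CTR-LPS mice. Rrm2, the regulated subunit of the enzyme that makes deoxynucleotides, was at 198 to 334 CPM (median 248) and 0.0974 to 3.24 CPM (median 1.73) in the same groups, and Mcm5, a subunit of the replicative helicase, at 81 to 166 CPM (median 139) and 2.06 to 10.1 CPM (median 6.56). Pclaf, a partner of the replication clamp, fell below CTR-PBS after LPS (log2 fold change -2.63 ± 0.59, adjusted p = 0.000896), from 0.751 to 7.07 CPM (median 1.35) to 0.045 to 1.01 CPM (median 0.236). Uhrf1, which passes DNA methylation on to new strands, was raised by LPS (1.74 ± 0.60 on the log2 scale), but only to 0.429 to 7.54 CPM (median 2.73), against 36.3 to 100.4 CPM (median 62.8) in P9-CTR mice. Kif23, Ckap2, Spc24, Birc5 and Kif11, which build the spindle, its midzone and its attachment to chromosomes, had log2 fold changes of -7.62 to -6.92 between CTR-LPS and P9-CTR mice.

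Most genes of amoeboid, neonatal microglia were lower in CTR-LPS than in P9-CTR mice. Of the list's 36 genes, 25 were higher in P9-CTR than in CTR-PBS mice, beside 18.5% of all tested genes. In CTR-LPS mice 22 were lower and 1 higher than in P9-CTR mice, beside 17.9% and 10.9%. Against CTR-PBS mice, LPS raised 5 and lowered 2, beside 6.02% and 3.6%. The 5 raised by LPS were Spp1, Fabp5, Csf1, Apoe and Lyz2. Apoe, the lipid carrier apolipoprotein E, was at 6275 to 12580 CPM (median 7662) in P9-CTR, 23.3 to 103 CPM (median 43.6) in CTR-PBS and 51.29 to 176 CPM (median 113) in CTR-LPS mice, so its increase with LPS (1.14 ± 0.26 on the log2 scale) left it -6.07 ± 0.31 from P9-CTR. Lyz2, the macrophage lysozyme, was at 334 to 657 CPM (median 454) in P9-CTR, 24.2 to 70.3 CPM (median 45.8) in CTR-PBS and 27.9 to 141 CPM (median 94.2) in CTR-LPS mice. Csf1, the growth factor that binds Csf1r, had medians of 55.9, 19 and 47.2 CPM in the same order. The 2 lowered by LPS, away from the neonatal state, were Igf1 and Plin2. Igf1, the insulin-like growth factor through which neonatal microglia support myelin, was at 44.4 to 86.5 CPM (median 58.3) in P9-CTR mice, 0 to 0.74 CPM (median 0.142) in CTR-PBS mice and 0 to 0.113 CPM (median 0) in CTR-LPS mice, where it had 3 reads in all and none in 5 of the 7 mice. Both adult groups were thus close to 0, and the Igf1 call between them rests on few reads. Igf1 lies on chromosome 10 at 87693642 to 87772904, plus strand. Plin2, which coats lipid droplets, was at 154 to 237 CPM (median 216) in P9-CTR, 0.916 to 77.2 CPM (median 58.5) in CTR-PBS and 19.6 to 43.3 CPM (median 22.7) in CTR-LPS mice. Lpl, a lipase, was at 200.5 to 444 CPM (median 351) in P9-CTR and 1.5 to 6.05 CPM (median 4.56) in CTR-LPS mice. Mrc1, the mannose receptor, was at 524 to 910.1 CPM (median 699.8) in P9-CTR and 1.73 to 7.24 CPM (median 4.53) in CTR-LPS mice. It also marks border-associated macrophages, and it is itself most of their summed level at P9. Of that list's 10 genes, 9 were lower in CTR-LPS than in P9-CTR mice, beside 17.9% of all tested genes. Fabp7 and Ncan, which brain progenitors and astrocytes are known to express, and Gpx3, a secreted glutathione peroxidase, were among the 10 largest decreases, with medians of 84.9, 80.5 and 187 CPM in P9-CTR mice and of 0.225, 0.113 and 0.333 CPM in CTR-LPS mice. The part of the other-cell transcripts in these differences was not tested.

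Cytokines and chemokines made up the other side. Among all tested genes 10.9% were higher and 17.9% lower in CTR-LPS than in P9-CTR mice, and LPS raised 6.02% above CTR-PBS. Of 20 tested cytokine genes, 16 were higher and 1 lower in CTR-LPS than in P9-CTR mice. Of 20 chemokine genes 14 were higher and 2 lower. All 14 of these chemokines were also higher in CTR-LPS than in CTR-PBS mice. Il12b, which encodes an interleukin subunit that directs T cell responses, headed the named increases. It had no read in any of the 12 P9-CTR mice and was at 17.4 to 96.3 CPM (median 51.07) in CTR-LPS mice, at least 408-fold higher on a floor of 3 reads per library. It lies on chromosome 11 at 44290808 to 44305505, plus strand. Il1b, interleukin-1 beta, was at 0 to 2.06 CPM (median 0.639) in P9-CTR, 0 to 4.61 CPM (median 1.51) in CTR-PBS and 66.4 to 668 CPM (median 392) in CTR-LPS mice (log2 fold change against P9-CTR 8.98 ± 0.59, adjusted p = 2.29e-18). Tnf, tumour necrosis factor, was at 0.0547 to 4.82 CPM (median 2.37) in P9-CTR and 134 to 433 CPM (median 225) in CTR-LPS mice, and Tnfsf9, a co-stimulatory ligand for T cells, at 1.09 to 3.23 CPM (median 2.44) and 104 to 534 CPM (median 319). Il16 was the cytokine gene that was lower, at 33.4 to 74.7 CPM (median 46.9) in CTR-LPS, 118.9 to 218 CPM (median 178) in P9-CTR and 223 to 298 CPM (median 274) in CTR-PBS mice. Among chemokines, Cxcl10, which draws activated T cells, was at 158 to 784 CPM (median 453) in CTR-LPS and 0.745 to 4.53 CPM (median 2.48) in P9-CTR mice. Ccl12 was at 616 to 4719 CPM (median 2789) and 47 to 115 CPM (median 72.4), and Ccl5 at 6.15 to 86.3 CPM (median 42.3) and 0 to 1.85 CPM (median 0.707), in the same groups. Ccl4 was separated by both age and LPS, with 16.2 to 31.9 CPM (median 23.5) in P9-CTR, 93.4 to 339 CPM (median 233) in CTR-PBS and 583 to 2192 CPM (median 1318) in CTR-LPS mice. Cxcl12 and Cxcl14 were the 2 chemokines higher in P9-CTR mice.

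The NF-kB list holds its subunits and its feedback genes. Of 36 members, 32 were higher in CTR-LPS than in P9-CTR mice and 0 lower, beside 10.9% and 17.9% of all tested genes. Against CTR-PBS mice 28 were higher, beside 6.02%. Nfkbia, the inhibitor that pulls NF-kB out of the nucleus, was at 1170 to 2152 CPM (median 1712) in CTR-LPS, 104 to 195 CPM (median 125) in CTR-PBS and 47.9 to 77.6 CPM (median 59.1) in P9-CTR mice. Its log2 fold change against P9-CTR was 4.76 ± 0.16, adjusted p = 9.51e-30, and the gene lies on chromosome 12 at 55535332 to 55539432, minus strand. Socs3, an inhibitor of cytokine signalling, was at 614 to 4556 CPM (median 1292) in CTR-LPS and 3.63 to 15.6 CPM (median 9.59) in P9-CTR mice. Dusp1, a phosphatase that ends MAP kinase signalling, was at 224 to 712 CPM (median 582) and 2.62 to 8.69 CPM (median 4.82), and Cish, a relative of Socs3, at 35.3 to 112 CPM (median 66.3) and 0 to 2.39 CPM (median 0.558). Ptgs2, the inducible cyclooxygenase, was at 41.5 to 329.7 CPM (median 214) in CTR-LPS mice and at most 0.743 CPM in P9-CTR mice.

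Several of the largest differences combined a low neonatal level with a rise after LPS. Tgm2, a transglutaminase, was at 0 to 0.859 CPM (median 0.306) in P9-CTR, 15.06 to 55.25 CPM (median 39.2) in CTR-PBS and 81.2 to 777 CPM (median 206) in CTR-LPS mice. Hcar2, the receptor for niacin and beta-hydroxybutyrate, was at 0.467 to 3.84 CPM (median 2.46), 11.5 to 33.2 CPM (median 20.7) and 370.5 to 1710 CPM (median 1088) in the same order. Gcnt2, which branches the sugar chains of the I blood group antigen, was at 2.95 to 11.6 CPM (median 7.12), 55.7 to 79.3 CPM (median 68.1) and 1012 to 1578 CPM (median 1347). Each of the 3 was called lower in P9-CTR than in CTR-PBS mice and higher in CTR-LPS than in CTR-PBS mice, with no overlap between the active groups. C5ar1, the receptor for complement fragment C5a, followed the same order, with medians of 162, 492 and 2544 CPM. Ch25h, which makes an oxidised form of cholesterol, and Cd40, a co-stimulatory receptor, were raised by LPS to 19 to 162 CPM (median 99.5) and 8.44 to 84 CPM (median 55.7) and did not pass the test between P9-CTR and CTR-PBS mice.

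Immediate early genes, 20 of 23 of them, and glucocorticoid target genes, 12 of 14, were higher in CTR-LPS than in P9-CTR mice. The share among all tested genes was 10.9%. Egr1, a zinc finger transcription factor, was at 402 to 720.4 CPM (median 544) in CTR-LPS, 3.48 to 21.2 CPM (median 11.5) in CTR-PBS and 0.83 to 5.65 CPM (median 3.54) in P9-CTR mice, and Fos, a subunit of AP-1, at 133 to 193 CPM (median 138), 0 to 4.81 CPM (median 0.751) and 0.881 to 5.2 CPM (median 1.86). Ier2 and Fosl2 were 6.01 ± 0.34 and 5.89 ± 0.37 higher on the log2 scale than in P9-CTR mice. Tsc22d3, the glucocorticoid-induced leucine zipper, was at 307 to 584 CPM (median 359) in CTR-LPS, 97.5 to 199.7 CPM (median 153) in CTR-PBS and 28.9 to 51.8 CPM (median 41.1) in P9-CTR mice, so that the neonatal level was lowest. Fkbp5, a chaperone of the glucocorticoid receptor, was at 160.1 to 218 CPM (median 172) in CTR-LPS and 26.8 to 50 CPM (median 36) in P9-CTR mice.

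Of 45 tested interferon-stimulated genes, 21 were higher and 1 lower in CTR-LPS than in P9-CTR mice, beside 10.9% and 17.9% of all tested genes. Against CTR-PBS mice 12 were higher and 0 lower in CTR-LPS mice, beside 6.02% and 3.6%. Irf1, an interferon regulatory factor that NF-kB also controls, was at 171 to 456 CPM (median 244) in CTR-LPS and 17 to 36.2 CPM (median 29.7) in P9-CTR mice, and Slfn2, of the Schlafen family, at 453 to 888 CPM (median 666) and 27.8 to 60.5 CPM (median 37.2). The guanylate-binding proteins Gbp5 and Gbp2 were 4.95 ± 0.53 and 2.67 ± 0.41 higher. Isg15, the ubiquitin-like modifier, reached only 5.44 to 9.93 CPM (median 7.7) in CTR-LPS mice. Of 21 genes of MHC class I and antigen processing, 4 were higher and 0 lower in CTR-LPS than in P9-CTR mice, with the same shares beside them. The 4 included H2-K1 (1.04 ± 0.15) and H2-T23 (1.70 ± 0.16). Against CTR-PBS mice 3 of the 21 were higher and 0 lower. The H2-K1 call was lost without CTR-LPS mouse 8.2 (0.905) or mouse 1.2 (0.997). It was also lost with counts summed over mice sharing a label number (0.944) and under limma voom (0.983). Members of the H2 family are near-identical, and reads could have been split among them.

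Of 34 phagocytosis and complement genes, 8 were higher and 8 lower in CTR-LPS than in P9-CTR mice, beside 10.9% and 17.9% of all tested genes. On the CTR-LPS side, beside C5ar1, stood Mertk, a receptor for dying cells that is also on the homeostatic list (1.03 ± 0.15). On the P9-CTR side stood Axl, a relative of Mertk, with 11.3 to 88.3 CPM (median 35.7) against 0.576 to 13.3 CPM (median 4.29), and Gas6, the ligand of both, with 329.8 to 995 CPM (median 619) against 58.7 to 144 CPM (median 98.1). Scarb1, a scavenger receptor for lipoproteins, was also lower in CTR-LPS mice (-2.07 ± 0.30). C1qa, a chain of complement C1q, and Trem2, a lipid receptor, differed by 0.70 ± 0.16 and 0.60 ± 0.09, short of the fold threshold. Msr1, a scavenger receptor, was higher in both states, at 1.92 to 6.13 CPM (median 4.22) in P9-CTR, 0 to 2.19 CPM (median 0.784) in CTR-PBS and 4.15 to 10.7 CPM (median 6.73) in CTR-LPS mice.

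Among all tested genes 10.9% were higher and 17.9% lower in CTR-LPS mice, and the counts of metabolic genes are given beside these shares. Of 24 glycolysis genes, 4 were higher in CTR-LPS than in P9-CTR mice and 6 lower. The 4 were the glucose transporters Slc2a1 (3.21 ± 0.26) and Slc2a3 (1.48 ± 0.26), Pfkfb3, which makes the activator of phosphofructokinase (3.28 ± 0.24), and Slc16a3, a lactate exporter; the first 3 were also higher than in CTR-PBS mice. The 6 lower genes, Pfkm, Pfkp, Aldoc, Tpi1, Pgk1 and Pkm, are enzymes of the pathway itself. Against CTR-PBS mice, LPS lowered 0 of the 24 genes, beside 3.6% of all tested genes. In P9-CTR mice 6 of the 24 were higher than in CTR-PBS mice, beside 18.5%. Of 29 cholesterol genes 11 were lower and 0 higher, among them the synthesis enzymes Sqle, with 21.5 to 55 CPM (median 37.8) in P9-CTR and 0.6 to 3.14 CPM (median 1.66) in CTR-LPS mice, and Hmgcs1 (-1.096 ± 0.17) and Cyp51 (-1.07 ± 0.18). LPS raised 5 genes of this list above CTR-PBS, among them Apoe, beside 6.02% of all tested genes. Of 78 genes of the cytosolic ribosome, 9 were lower and 2 higher in CTR-LPS than in P9-CTR mice, a share below that of all tested genes, with a median log2 fold change of -0.717. Rpsa (-1.55 ± 0.17), Rps2, Rps19 and Rpl29 led them, and ribosomal genes have processed copies with which reads could have been shared. Of 74 genes of oxidative phosphorylation 4 were lower and 0 higher, again below the shares of all tested genes, led by Cox5a (-1.17 ± 0.14) and Cox6a1 (-1.07 ± 0.12), subunits of cytochrome c oxidase.

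**Figure D4:**
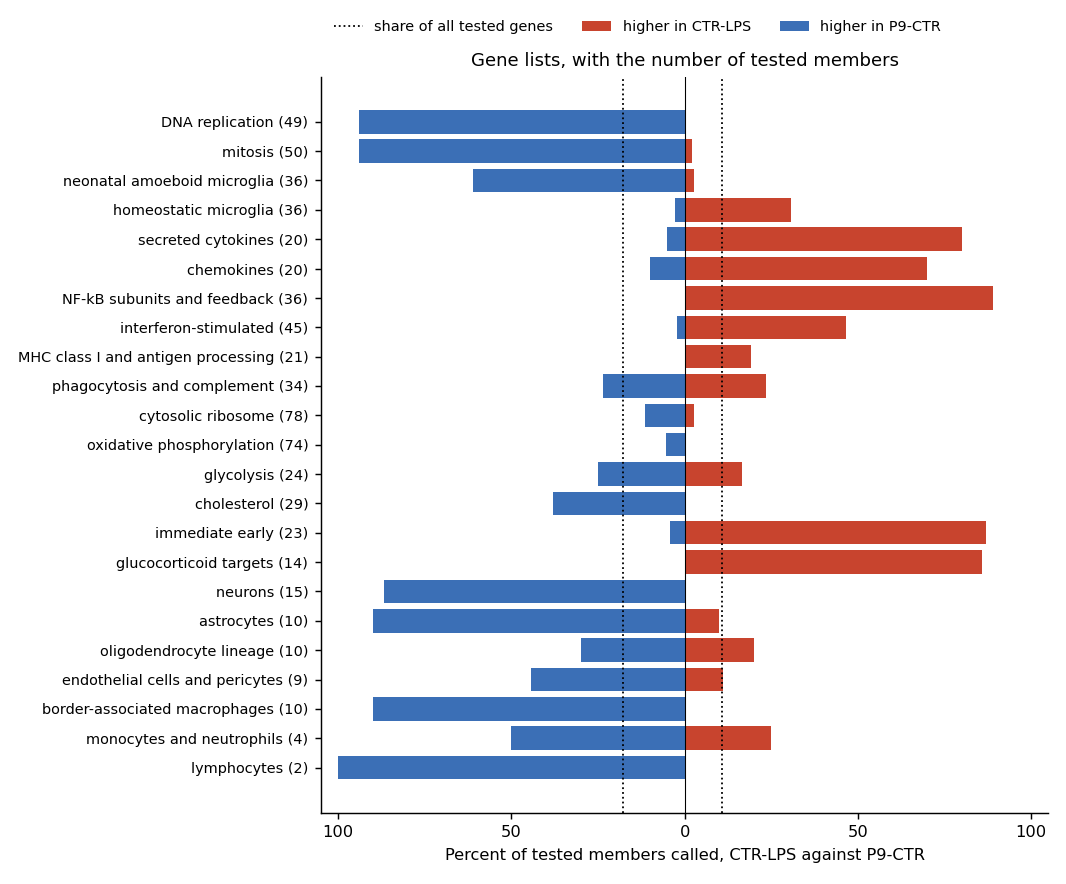
Percent of the tested members of each gene list (number in brackets) called higher (red, to the right) or lower (blue, to the left) in CTR-LPS than in P9-CTR mice. The dotted lines mark the shares among all tested genes, 10.9% and 17.9%. NF-kB, immediate early and glucocorticoid target genes lie to the right, and DNA replication, mitosis, neuronal and border-associated macrophage genes to the left.

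Promoter sequences were compared between the sides of the contrast, as a description without a test. RefSeq promoters (GRCm38.p6, 300 bases, 250 before and 50 after each start) were matched by symbol for 11284 of the 16696 tested genes, 14420 promoters in all, and searched on both strands. The NF-kB motif GGGANTTTC was found in 2% of 1399 promoters of genes higher in CTR-LPS, 1.12% of 2769 promoters of genes lower in CTR-LPS and 1.05% of all. The interferon response motif GAAANNGAA was found in 9.58%, 6.83% and 7.14%, and in 54.1% of 37 promoters of the interferon-stimulated list. The E2F motifs TTTCCCGC and TTTGGCGC were found in 2%, 3.5% and 2.76%, and in 26.1% of 46 promoters of the DNA replication list. The cell cycle homology region TTTGAA was found in 11.4%, 14.8% and 12.5%, and in 75% of 44 promoters of the mitosis list. The CCAAT box was found in 34.4%, 41% and 37.7%, and in 68.2% of the mitosis promoters.

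The following promoters show 2 genes of the CTR-LPS side, 2 of the P9-CTR side and Kif2c, which was high in both. Each is the 250 bases before the start, 5′ to 3′ on the gene's strand, and capitals mark matches on either strand to the NF-kB and interferon motifs in Nfkbia and Cxcl10, to E2F in Mcm5 and to the cell cycle homology region in Top2a and Kif2c.
Nfkbia (GRCm38.p6, chr12:55492648-55492897, minus strand): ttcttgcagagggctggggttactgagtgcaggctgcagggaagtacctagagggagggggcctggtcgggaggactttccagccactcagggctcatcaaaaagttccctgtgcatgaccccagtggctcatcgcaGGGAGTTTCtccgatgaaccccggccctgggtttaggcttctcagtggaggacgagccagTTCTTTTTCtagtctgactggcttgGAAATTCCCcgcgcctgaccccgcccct
Cxcl10 (GRCm38.p6, chr5:92348890-92349139, minus strand): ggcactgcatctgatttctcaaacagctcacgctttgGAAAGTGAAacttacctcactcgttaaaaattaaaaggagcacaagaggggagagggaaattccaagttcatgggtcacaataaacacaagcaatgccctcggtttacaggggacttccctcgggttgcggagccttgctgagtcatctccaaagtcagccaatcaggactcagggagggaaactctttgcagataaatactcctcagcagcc
Mcm5 (GRCm38.p6, chr8:75109259-75109508, plus strand): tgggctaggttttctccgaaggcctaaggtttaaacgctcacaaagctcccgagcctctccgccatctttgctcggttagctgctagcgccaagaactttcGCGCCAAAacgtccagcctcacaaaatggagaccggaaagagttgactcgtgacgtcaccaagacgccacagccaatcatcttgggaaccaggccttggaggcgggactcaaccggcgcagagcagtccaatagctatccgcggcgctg
Top2a (GRCm38.p6, chr11:99024190-99024439, minus strand): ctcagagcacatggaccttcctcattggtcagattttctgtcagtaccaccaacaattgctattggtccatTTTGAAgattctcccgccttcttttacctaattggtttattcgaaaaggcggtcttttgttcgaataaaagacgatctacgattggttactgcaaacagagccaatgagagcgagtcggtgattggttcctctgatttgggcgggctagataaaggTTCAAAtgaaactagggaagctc
Kif2c (GRCm38.p6, chr4:117178773-117179022, minus strand): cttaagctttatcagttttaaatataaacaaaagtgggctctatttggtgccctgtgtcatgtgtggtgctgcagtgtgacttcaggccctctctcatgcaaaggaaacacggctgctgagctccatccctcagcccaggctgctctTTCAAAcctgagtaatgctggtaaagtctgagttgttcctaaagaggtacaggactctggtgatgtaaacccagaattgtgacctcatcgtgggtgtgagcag

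The same contrast in mice reared under ELS gave similar numbers of calls. ELS-LPS against P9-ELS mice had 1693 genes higher and 2832 lower. No gene of 16696 had a difference between the contrasts of the 2 rearing conditions that passed the rule (edgeR quasi-likelihood interaction test), the smallest adjusted p was 0.693, and 696 genes had an unadjusted p under 0.05. The edgeR likelihood-ratio test called 5 genes, and DESeq2 and limma voom called 0. A missed threshold does not show that the contrasts are equal.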

How the data were processed

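RNA of hippocampal microglia of 50 mice was sequenced by the authors, 1 library per mouse. Per the labels and the study's methods, reads were demultiplexed with bcl2fastq (2.20), trimmed with cutadapt (2.10), aligned with STAR to GRCm39 and counted per gene with HTSeq (0.11.0); the annotation release and the strand setting are not given in the sources used here, so reads of antisense or overlapping genes cannot be told apart. The authors deposited raw read counts per gene, which carry no normalization. The mouse is the replicate. Groups came from the titles.

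All 50 libraries were fitted together as 6 group means with edgeR (4.0.16, R 4.3.3; TMM factors, quasi-likelihood test) over genes with at least 1 CPM in at least 3 mice, and log2 CPM used a prior count of 2. Alternatives were the likelihood-ratio test, DESeq2 (1.42.0), limma voom (3.58.1), other filters and scalings, and each mouse left out. Limma voom took the label number as a random effect. The fit with the number as a block held only the CTR-LPS and CTR-PBS mice and used the gene lists of the main fit. The fit was tested on simulated data. Single values were compared by exact permutation tests. Replicates of 1 group differed beyond sampling noise.

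The comparison, gene lists and tests were chosen with earlier results of these data known. Named genes were the 10 largest increases and 10 largest decreases with non-overlapping groups and a mean log2 CPM of at least 5 in the higher group (predicted genes left out), up to 4 members with the largest fold changes of each list, the 10 leading genes up and the 10 down in both states by their smaller fold change in ELS mice, and 14 genes set by name. Others were chosen after their values were seen. Some genes that these rules name are not reported here. Positions came from the GENCODE annotation of GRCm39. Reads, and not molecules, were counted, so floors cover counting error only.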

Additional observations from a re-analysis of the deposited data

Results flagged for a closer look

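In each group of 7 adult mice, a mouse was singled out where its gap to the nearest other mouse was large beside the range of the group. Chance does this in about 1 of 20 groups, and 12 of 115 were singled out. CTR-PBS mouse 1.1 was 2.82 from the P9-CTR mean profile, while the next CTR-PBS mouse was at 1.73, and this is the library with few detected genes.

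CTR-LPS mouse 5.3 was the lowest of its group in 36 of 109 named genes and in 26 of the 44 called higher in CTR-LPS than in CTR-PBS mice. In 6 of the 36 its gap was large enough to be singled out. On the log2 CPM scale it was at 6.06 for Il1b (next lowest 8.13), 8.53 for Hcar2 (9.84), 4.26 for Ch25h (6.35), 9.27 for Ccl12 (11.18), 4.21 for Kif2c (5.19) and 12.65 for Selplg (12.85). Its position on the LPS axis, 0.85, was the lowest of the 7 CTR-LPS mice. Leaving it out changed no call of a named gene between CTR-LPS and P9-CTR mice. The other single mice were the highest CTR-LPS mouse for Ckap2 (0.337, next highest -2.28), the lowest for H2-T23 (5.71), mouse 1.2 for Slc2a3 (4.32) and Gfap (-3.42), and mouse 8.2 for Nudt7 (3.14).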

How the results depend on the processing

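The shifts along the age axis (0.0567 to 0.0779) and the LPS axis (0.154 to 0.273) kept their direction and their side of the threshold under every alternative run. The distance to P9-CTR did not. Its difference was 0.00434 over genes with a mean log2 CPM of at least 3 and 0.0106 as 1 minus the Pearson correlation. Leaving out single mice gave -0.0475 to 0.156, and leaving out the 3 libraries with the fewest detected genes, an alternative chosen after seeing the data, gave 0.156; CTR-PBS mouse 1.1 is the library behind both upper values.

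Without the fold change threshold, and by its construction, more genes were called. There were 3191 genes higher in CTR-LPS than in P9-CTR mice, 1035 lower in CTR-LPS and 2911 lower in P9-CTR than in CTR-PBS mice, and LPS raised 415 and lowered 132 neonatal-high genes and raised 297 and lowered 385 neonatal-low genes. For the genes up in both states the counts became 243 (LPS) and 393 (P9), and for those down in both states 252 (LPS) and 296 (P9). With no filter on low counts 2758 genes were higher in CTR-LPS than in P9-CTR mice. With counts summed over mice of 1 group sharing a label number, LPS raised 157 and lowered 39 neonatal-high genes, and the likelihood-ratio test had it lower 118. Limma voom with the label number as a random effect gave 20 neonatal-high genes lowered, 193 neonatal-low genes raised and 216 lowered by LPS. It also gave 117 genes up in both states called at P9 and 162 genes down in both states called after LPS. The likelihood-ratio test called 5 differences between rearing conditions. Without the 3 libraries of few genes 152 genes down in both states were called at P9. The cause of these changes was not tested. All counts of the direct contrast stayed within 1.5 times the main count when any CTR-LPS or P9-CTR mouse was left out.

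CTR-LPS and CTR-PBS mice share 5 label numbers. What a number stands for is not stated. Deviations from the group mean correlated at -0.008 to 0.075 between CTR-PBS and CTR-LPS mice of the same number, over 5 pairs. Between different numbers they correlated at -0.117 to 0.129, and for 3 of the 5 numbers the best match was their own. Whether mice of 1 number deviate together is not settled by so few pairs, and P9 mice were not checked. With the number as a replicate block, in a fit of these adult mice alone, 706 genes were higher and 392 lower in CTR-LPS than in CTR-PBS mice. There LPS raised 93 and lowered 8 neonatal-high genes and raised 117 and lowered 117 neonatal-low genes. The parts of the block and of the fewer mice in these counts were not tested. No paired analysis was possible for CTR-LPS against P9-CTR because they share 1 mouse number across ages.

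Among 109 named genes, 3031 of 3052 values under 28 alternatives kept their call, 21 lost it, in 6 genes, and 0 changed sign. Atp5g3 lost it without 1 CTR-LPS mouse (P200_18.3_CTR_LPS) or any of 5 P9-CTR mice (-0.999 to -0.957), Cox6c without CTR-LPS mouse 8.3 (-0.989) and Gm33858 without P9-CTR mouse P9_58.1_CTR (-0.948) or P9_58.2_CTR (-0.905).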

Other observations

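Marker lists of other cells differed from each other in this contrast, and the summed levels of oligodendrocyte and endothelial genes overlapped between CTR-LPS and P9-CTR mice. Among all tested genes 10.9% were higher and 17.9% lower in CTR-LPS than in P9-CTR mice. Of 10 astrocyte genes, 9 were lower and 1, the glutamate transporter Slc1a3, higher. The list's summed level was 494 to 604 CPM in CTR-LPS, 298 to 499 CPM in CTR-PBS and 169 to 395 CPM in P9-CTR mice. Slc1a3 was nearly all of the adult sums, with means of 550 beside 560 CPM in CTR-LPS and 356 beside 363 CPM in CTR-PBS. In P9-CTR mice it was 120 beside 292 CPM. The sum therefore does not follow the other 9 genes. Of 10 tested genes of the oligodendrocyte lineage 3 were lower and 2 higher, and of 9 of endothelial cells and pericytes 4 were lower and 1 higher. Their summed levels in CTR-LPS mice were 122 to 164 CPM and 60.2 to 95.6 CPM, against 124 to 179 CPM and 21.5 to 68.2 CPM in P9-CTR mice. Of the monocyte and neutrophil list 4 genes reached testing, with 2 lower and 1 higher, and of the lymphocyte list 2, both lower. One of the latter is Cd79b, a B cell receptor subunit, with medians of 36.4 CPM in CTR-LPS, 45.5 CPM in CTR-PBS and 153 CPM in P9-CTR mice.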
